A study of Mus musculus with 41 samples.

Results

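Cells of MEEC, a line derived from wild-type embryonic mouse endocardium, were grown on wells coated with the recombinant Notch ligand DLL4-His (rDLL4, 3 libraries) and compared by RNA-seq with MEEC cells in control wells (vehicle, 3 libraries), 6 of the 41 libraries of the study. All 6 cultures received DMSO, the solvent of the inhibitor, so the groups differed in the coating of the wells, and all libraries come from 1 cell line. The labels do not say what the control wells were coated with. Cells stayed 24 h on the wells and then 14 h in medium without serum, 38 h in all, with DMSO present throughout. The 3 further groups of the same experiment (3 libraries each) serve as reference: MEEC on rDLL4 with 20 µM RO4929097, an inhibitor of gamma-secretase, MEEC on the ligand JAG1-Fc (rJAG1), and MEEC on rJAG1 with the same dose of inhibitor. MEEC co-cultured for 24 h over OP9 stromal cells that expressed Dll4 or GFP form a separate experiment (3 libraries each). All 13407 genes of the table were tested, on the log2(signal + 1) scale, with libraries paired by replicate number.

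Notch receptors are cut when a ligand on a neighbouring surface pulls on them, and gamma-secretase then releases their intracellular domain, which enters the nucleus and joins the DNA-binding protein RBPJ to switch on genes such as the Hey and Hes repressors. DLL4 and JAG1 are among the ligands of this pathway in the heart. In the embryonic endocardium Notch signalling is known for its part in valve formation, where some endocardial cells become mesenchymal, and in trabeculation, where endocardial signals act on the heart muscle.

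The vehicle libraries held 18.1 to 34.2 M reads and the rDLL4 libraries 11.2 to 27.7 M, so that 3 reads, the most that a zero count is compatible with, correspond to a normalized signal between 0.0859 and 0.266 over the 15 libraries of this experiment. Signal is in the authors' units, scaled to library size. Vehicle library 3 stood apart: chi-square per gene was 35.4 and 52.6 against vehicle libraries 1 and 2, compared with 11.1 between those and 6.87 to 8.24 among the rDLL4 libraries. Of 25 endothelial and endocardial markers, 12 were listed in the table, among them Kdr, Tek, Nfatc1 and Gata4. The other 13 were not listed, and they include the defining endothelial genes Pecam1, Cdh5, Tie1, Vwf, Emcn and Erg. The measurements are from bulk RNA, so fewer cells of a type and less RNA per cell cannot be told apart.

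On rDLL4, the transcriptome changed in both directions, with more genes rising than falling. Of 13407 genes, 868 passed an adjusted p of 0.05 (6.47%) in limma: 539 were higher on rDLL4 (4.02%) and 329 lower (2.45%). Those shares are the background for the counts within gene lists. At an unadjusted p under 0.05, limma held 2191 of the 13407 genes in either direction, the background for list counts at that level. The median log2 fold change was 0.52 among the genes that rose, -0.48 among those that fell and -0.00051 over all genes tested. Changes of at least 1 on the log2 scale were seen for 64 genes that rose and 12 that fell. In 537 of the 539 risers and 328 of the 329 fallers, all 3 pairs of libraries moved the same way. Libraries of the groups did not overlap for 493 of the risers and 267 of the fallers, and over all genes the share without overlap was 8.45% in the higher direction and 6.65% in the lower. With all libraries, edgeR called 546 of the 13407 genes higher and 353 lower, and DESeq2 579 higher and 396 lower. Those totals are the background for list counts in these 2 tools. Without the replicate block, 469 genes passed in limma (328 or 2.45% higher, 141 or 1.05% lower). The count was 1431 without vehicle library 3 (780 or 5.82% higher, 651 or 4.86% lower). It was 571 without vehicle library 1 (394 higher, 177 lower) and 508 without vehicle library 2 (326 higher, 182 lower). Without rDLL4 libraries 1, 2 and 3 it was 475 (322 higher, 153 lower), 552 (338 higher, 214 lower) and 532 (364 higher, 168 lower). List counts in a fit without 1 library have the total of that fit over all 13407 genes as background.

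**Figure D1:**
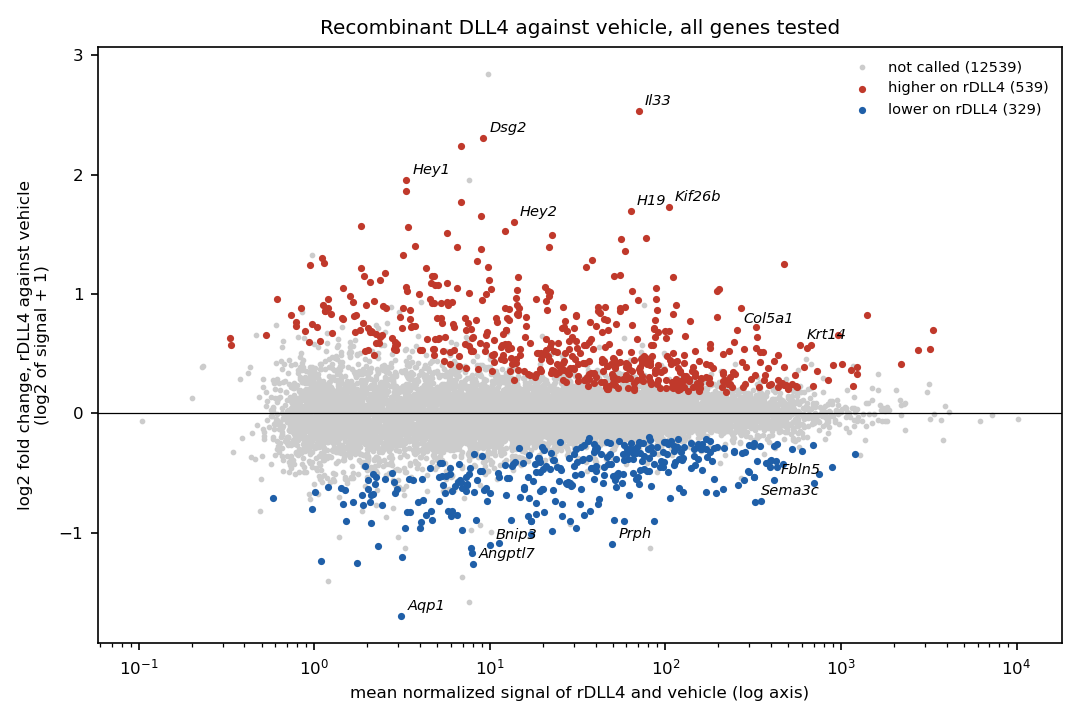
Log2 fold change of rDLL4 against vehicle (log2 of signal + 1) for each of the 13407 genes, against the mean normalized signal of both groups on a log axis. Red points are the 539 genes that were higher and blue points the 329 that were lower at an adjusted p under 0.05, and the labelled Il33 lies highest among them at 2.54 and Aqp1 lowest at -1.70.

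The genes of the canonical Notch response rose together. Of 9 listed targets 6 were in the table, and 5 of them rose and 0 fell, with a median log2 fold change of 1.02, where 4.02% of all genes tested rose. All 5 kept their call in each of the 6 fits that left out 1 library and in the fit without the replicate block. Library values are given for replicates 1, 2 and 3 in that order. The ± after a log2 fold change or log2 difference is its standard error in limma, from the fit of all libraries of that experiment.

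Hey1 (chromosome 3, 8663359 to 8667256, minus strand, build GRCm38) encodes a transcriptional repressor that Notch switches on. Its signal was 0.748, 0.816 and 0.754 in vehicle and 6.46, 6.01 and 5.19 on rDLL4, a 7.62-fold ratio of the means (log2 fold change 1.95 ± 0.14, adjusted p = 1.93e-06). All 3 rDLL4 libraries lay far above the vehicle libraries, which differed little among themselves. Its relative Hey2 (chromosome 10, 30832359 to 30842801, minus strand) stood at 4.43, 4.71 and 10.8 in vehicle and 20.7, 19.04 and 22.4 on rDLL4 (log2 fold change 1.600 ± 0.16, adjusted p = 3.70e-05). Vehicle library 3 held more Hey2 RNA than the other vehicle libraries and was still below every rDLL4 library.

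Heyl, the third gene of the family (chromosome 4, 123233556 to 123249875, plus strand), was close to the limit of counting in vehicle, with 2, 3 and 1 reads against 30, 22 and 10 on rDLL4. Its signal was 0.101, 0.1002 and 0.0838 against 1.13, 1.33 and 0.932 (log2 fold change 0.96 ± 0.16, adjusted p = 0.00228), a value that depends on the pseudocount at so low a level. Hes1 (chromosome 16, 30064384 to 30067796, plus strand), a related repressor with a broad role in Notch feedback, was well expressed without ligand. It stood at 27.2, 32.2 and 29.8 in vehicle and 52.3, 53.6 and 44.9 on rDLL4 (log2 fold change 0.74 ± 0.12, adjusted p = 0.00219). The groups did not overlap for Heyl or for Hes1.

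Nrarp (chromosome 2, 25180758 to 25183339, plus strand) encodes a small ankyrin repeat protein that binds the Notch nuclear complex and dampens it. Its signal was 3.698, 2.68 and 3.16 in vehicle and 11.4, 5.003 and 8.303 on rDLL4 (log2 fold change 1.09 ± 0.15, adjusted p = 0.000458), and rDLL4 library 2 was the lowest of the 3. Notch3, a receptor gene that Notch itself can induce, stood at 0.909, 1.79 and 1.31 in vehicle and 1.98, 2.34 and 2.53 on rDLL4. The libraries of the groups did not overlap, and the difference did not pass (log2 fold change 0.50 ± 0.17, adjusted p = 0.123).

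The proximal promoters of these targets were read to show where the RBPJ motif lies. RefSeq windows on GRCm38.p6, from 250 bases before to 50 after the gene start, were in the reference table for Hey2 and Nrarp, and Hey1, Hes1 and Heyl had no entry in it. The letters GTGGGAA, or TTCCCAC on the other strand, are in capitals. The Hey2 window (chr10:30842734-30843033, minus strand) held 2 matches, which begin 207 and 4 bases before the start site. The Nrarp window (chr2:25180508-25180807, plus strand) held 0.
Hey2: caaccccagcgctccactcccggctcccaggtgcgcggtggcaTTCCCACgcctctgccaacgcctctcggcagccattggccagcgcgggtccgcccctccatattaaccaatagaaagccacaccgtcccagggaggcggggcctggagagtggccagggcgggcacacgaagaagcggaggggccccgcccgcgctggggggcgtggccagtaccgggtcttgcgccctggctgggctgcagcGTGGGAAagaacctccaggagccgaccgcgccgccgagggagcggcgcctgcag
Nrarp: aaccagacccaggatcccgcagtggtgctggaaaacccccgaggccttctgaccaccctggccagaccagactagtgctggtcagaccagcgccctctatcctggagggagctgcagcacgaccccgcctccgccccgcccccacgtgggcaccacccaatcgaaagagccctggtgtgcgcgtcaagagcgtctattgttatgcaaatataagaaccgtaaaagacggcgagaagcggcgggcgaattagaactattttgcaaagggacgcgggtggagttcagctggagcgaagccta
Over 32851 RefSeq windows of this length, 6.38% held the motif on either strand. Among tested genes with a window, the share was 7.13% of 9773, and it was 6.72% of the 402 risers and 6.72% of the 238 fallers with a window. A match is a run of letters, and no binding was measured here.

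**Figure D2:**
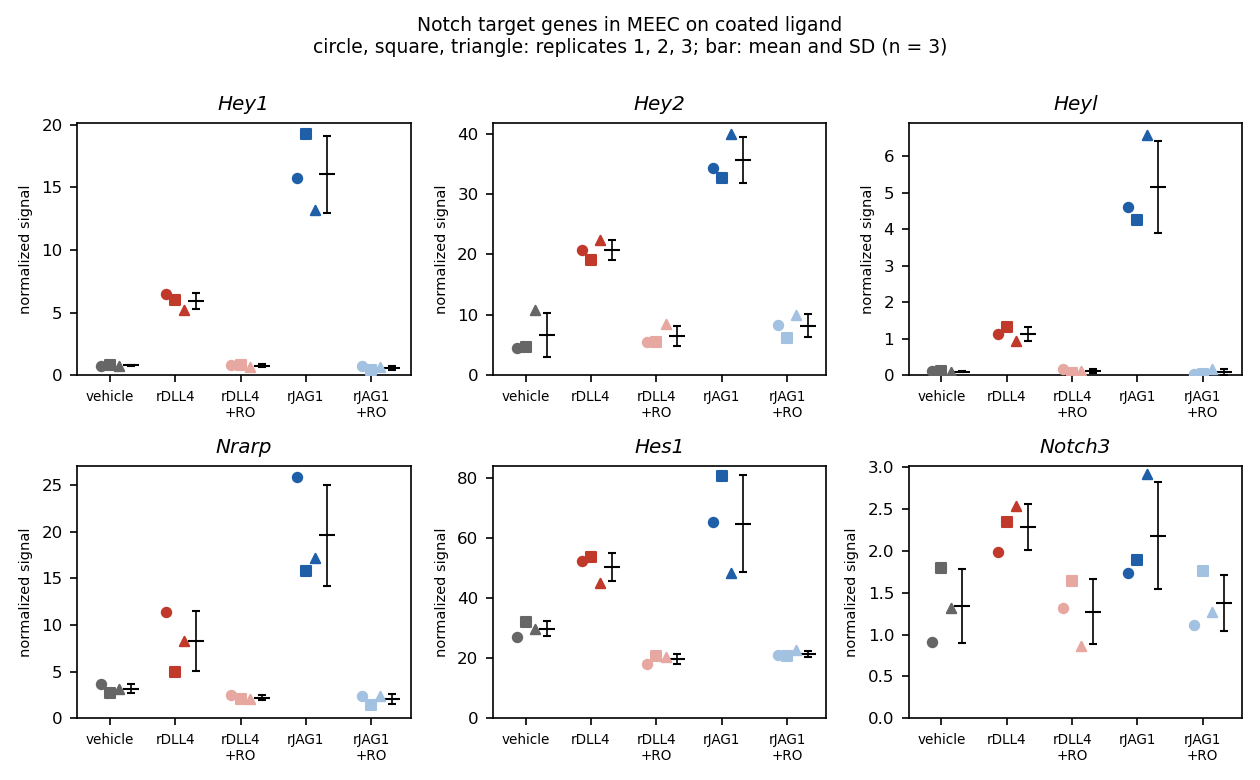
Normalized signal of the 6 measured Notch targets (vertical axes, from 0) in the 5 groups of the experiment, with 1 point per library and a bar for the mean and SD (n = 3). Hey1 lies between 5.19 and 6.46 on rDLL4 and below 1 in every vehicle and inhibitor library, and its rJAG1 libraries lie between 13.2 and 19.2.

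Among the receptors and ligands themselves, 1 of 7 measured genes rose and 1 fell (13 listed), where 4.02% of all genes rose and 2.45% fell. Jag1 (chromosome 2, 137081456 to 137116644, minus strand), which encodes a Notch ligand, stood at 32.2, 24.3 and 38.5 in vehicle and 66.7, 53.97 and 56.2 on rDLL4 (log2 fold change 0.89 ± 0.12, adjusted p = 0.00052). Every rDLL4 library exceeded every vehicle library, and the transcript is the cells' own, since the wells carried protein. Notch2, a receptor gene, stood at 132, 117 and 122 in vehicle and 118, 114 and 127 on rDLL4 and did not pass (log2 fold change -0.05 ± 0.06, adjusted p = 0.812). The libraries of the groups overlapped. Signal is not divided by gene length, so levels of different receptors are not compared here.

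Notch1 did not pass either (3.46, 4.16 and 7.18 against 6.38, 5.83 and 6.17, log2 fold change 0.31 ± 0.15, adjusted p = 0.338), and vehicle library 3 held the highest value of the 6. Without that library the difference passed (0.50, adjusted p = 0.0388). Jag2, another ligand, was at 16.3, 20.2 and 18.01 against 15.8, 17.4 and 18.3 and did not pass (adjusted p = 0.74). Neither did Dlk2, a delta-like gene (adjusted p = 0.843).

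Dlk1, an imprinted gene for a delta-like protein that lacks the usual receptor-binding domain, fell. Its signal was 6.16, 6.03 and 2.21 in vehicle and 1.72, 1.86 and 1.82 on rDLL4 (log2 fold change -0.96 ± 0.21, adjusted p = 0.0134). Vehicle library 3 lay near the rDLL4 libraries, and the other vehicle libraries were well above it. The call was lost in 4 fits, with an adjusted p of 0.0861 without vehicle library 1, 0.0769 without vehicle library 2, 0.0693 without rDLL4 library 1 and 0.082 without rDLL4 library 2, or without the replicate block (0.0631). Without vehicle library 3 the difference was -1.28 (adjusted p = 0.000246).

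Of 29 measured genes that process the receptor or act with it in the nucleus, 0 rose and 1 fell, with a median of -0.01. Over all genes 4.02% rose and 2.45% fell. Without adjustment, 2 were higher and 3 lower at p under 0.05, where 2191 of all 13407 genes were at that level in either direction. With adjustment, edgeR called 0 higher and 1 lower and DESeq2 0 and 2. The gene that fell, Psen2, encodes a catalytic subunit of gamma-secretase. It stood at 20.4, 18.96 and 18.1 in vehicle and 10.97, 12.6 and 12.8 on rDLL4 (log2 fold change -0.62 ± 0.11, adjusted p = 0.00265), with no overlap.

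The largest increase in log2(signal + 1) among genes that passed was that of Il33 (chromosome 19, 29925114 to 29960718, plus strand), which encodes a nuclear cytokine released from damaged cells. Its signal was 23.1, 25.2 and 13.3 in vehicle and 133, 125 and 103 on rDLL4, a 5.86-fold ratio (log2 fold change 2.54 ± 0.12, adjusted p = 6.12e-08), which is below the ratio of means of Hey1 and other genes of lower signal. Hecw1, which encodes a ubiquitin ligase, stood at 2.203, 1.67 and 1.31 against 15.6, 10.04 and 10.3 (log2 fold change 2.24 ± 0.14, adjusted p = 6.02e-07). Both genes were above every vehicle library in all 3 rDLL4 libraries.

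Kif26b, which encodes a kinesin-like protein, stood at 55.03, 57.9 and 33.5 in vehicle and 152, 175 and 154 on rDLL4 (log2 fold change 1.73 ± 0.14, adjusted p = 1.00e-05). The imprinted long noncoding RNA H19 stood at 33.6, 38.1 and 18.01 and 82.5, 127 and 81.1 (log2 fold change 1.696 ± 0.21, adjusted p = 0.000206). Igf2, which lies next to H19 on chromosome 7 and encodes a growth factor, was at 5.19, 4.39 and 3.71 and 6.01, 10.98 and 7.41 (log2 fold change 0.72 ± 0.17, adjusted p = 0.0171). All 3 genes were higher in every pair of libraries, and vehicle library 3 was the lowest library for each. For Igf2 the adjusted p was 0.0931 without vehicle library 2, 0.106 without rDLL4 library 2 and 0.0522 without rDLL4 library 3.

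Ntn4, a laminin-related secreted protein gene, Itga8, the gene of an integrin subunit, and Aldh1a3, which encodes an enzyme that makes retinoic acid, rose by 1.65 ± 0.16, 1.57 ± 0.13 and 1.53 ± 0.15 on the log2 scale (adjusted p = 3.96e-05, 8.83e-06 and 2.87e-05). Myo7a, an unconventional myosin, Pde3a, a phosphodiesterase that degrades cyclic AMP, and Prag1, a pseudokinase, rose by 1.56 ± 0.16, 1.51 ± 0.14 and 1.496 ± 0.12 (adjusted p = 5.91e-05, 1.86e-05 and 4.99e-06). Serpina3h, one of a cluster of near-identical protease inhibitor genes whose reads may be shared, rose by 1.86 ± 0.15 (adjusted p = 6.44e-06). Each of these 7 genes kept its call in all 6 fits that left out 1 library.

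Several genes of epithelial adhesion and keratin filaments rose. Of 16 listed markers 9 were in the table, and 6 rose (Dsg2, Cdh1, Anxa8, Krt14, Krt18 and Krt8) and 0 fell, with a median of 0.55, where 4.02% of all genes rose. Krt19 lay lower on rDLL4 and did not pass in limma (-0.20 ± 0.06, adjusted p = 0.088), while DESeq2 called 1 of the 9 lower. The count stayed 6 in each fit that left out 1 library. Dsg2, which encodes a desmosomal cadherin, stood at 2.73, 2.79 and 1.76 in vehicle and 17, 17.5 and 13.2 on rDLL4 (log2 fold change 2.31 ± 0.13, adjusted p = 4.08e-07). Cdh1, the gene of E-cadherin, stood at 4.79, 3.68 and 5.05 and 14.4, 13.4 and 12.03 (log2 fold change 1.38 ± 0.13, adjusted p = 1.84e-05). The 2 cadherin genes thus started low and rose several-fold, with no overlap between groups.

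The keratin genes Krt14, Krt18 and Krt8 rose as well, with smaller log2 fold changes. Krt14 stood at 489, 442 and 485 in vehicle and 751, 657 and 697 on rDLL4 (log2 fold change 0.57 ± 0.07, adjusted p = 0.000122). Krt8 stood at 310.4, 289.8 and 290.1 and 467, 390.4 and 416 (log2 fold change 0.51 ± 0.07, adjusted p = 0.000298). The summed signal of the 9 markers ran from 1442 to 1617 in vehicle, from 1877 to 2181 on rDLL4 and from 877.6 to 973.4 on rDLL4 with inhibitor. Epcam, a defining epithelial marker, and Dsp, a desmosome gene, were measured and did not pass (adjusted p = 0.957 and 0.743), and Cldn3, Cldn4, Cldn7, Ocln, Esrp1, Grhl2 and Krt5 were not listed.

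Genes linked to mesenchymal transition also rose. Of 23 measured members (26 listed), 12 rose and 1 fell, with a median of 0.34, where 4.02% of all genes rose and 2.45% fell. The rise included the transcription factor genes Snai2, Zeb2, Tbx20 and Prrx1, the matrix genes Fn1, Vcan and Postn, and the hyaluronan synthase gene Has2. Cdh1, which that list holds as the junction gene lost in such a transition, is 1 of the 12 counted as higher, as given above. Snai1, Vim, Tagln, Cdh11 and Msx1 of the same list did not pass (adjusted p between 0.234 and 0.947). The number that rose was 6 without the replicate block and fell to between 6 and 9 when vehicle library 1 or 2 or any rDLL4 library was left out, with 13 without vehicle library 3.

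Zeb2, a repressor of E-cadherin, stood at 30.1, 25.4 and 31.9 in vehicle and 43.4, 45.9 and 44 on rDLL4 (log2 fold change 0.60 ± 0.09, adjusted p = 0.00132). Vcan, which encodes the cushion proteoglycan versican, stood at 6.65, 5.28 and 6.23 and 10.01, 9.98 and 9.901 (log2 fold change 0.64 ± 0.12, adjusted p = 0.00459). Postn, a matrix protein gene of the valve mesenchyme, was low throughout, at 0.505, 0.615 and 0.419 and 1.79, 2.46 and 1.11 (log2 fold change 0.85 ± 0.16, adjusted p = 0.00386). In all 3 genes every rDLL4 library lay above every vehicle library. Twist1 and Zeb1, which encode transition factors, did not pass (adjusted p = 0.129 and 0.93), and S100a4, a calcium-binding protein gene, fell (-0.42 ± 0.11, adjusted p = 0.0329), with an adjusted p of 0.119 without the replicate block, and of 0.118 without vehicle library 1, 0.186 without vehicle library 2, 0.168 without rDLL4 library 2 and 0.134 without rDLL4 library 3.

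In the extracellular matrix list 14 of 37 measured genes rose and 1 fell, with a median of 0.23, where 4.02% of all genes rose and 2.45% fell. Col5a1, a fibrillar collagen gene, stood at 201, 193 and 187 in vehicle and 322, 313 and 312 on rDLL4 (log2 fold change 0.70 ± 0.05, adjusted p = 3.12e-06). Col1a1, the gene of the main chain of type I collagen, stood at 2335, 2329 and 2054 and 3298, 3260.5 and 3136 (log2 fold change 0.53 ± 0.07, adjusted p = 0.000241). Emilin2, whose protein coats elastic fibres, stood at 3.37, 3.33 and 1.26 and 11.8, 11.2 and 9.901 (log2 fold change 1.77 ± 0.20, adjusted p = 9.83e-05). Each was higher in every rDLL4 library than in any vehicle library.

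Elastic fibre genes did not all move one way. Eln, the gene of elastin, rose (6.79 ± 1.12 against 2.58 ± 0.934, mean ± SD of rDLL4 and vehicle, n = 3 each), as did the crosslinking enzyme genes Loxl1 and Loxl2. Fbln5, which encodes a protein that guides elastin onto microfibrils, fell from 510.4, 487 and 493 in vehicle to 341, 334 and 336 on rDLL4 (log2 fold change -0.56 ± 0.05, adjusted p = 3.70e-05). The spread within each group was small beside that difference. Lox was at an adjusted p of 0.985 and Col3a1 at 0.478. The list held 11 to 14 risers in the fits that left out 1 library, with 4 fallers in place of 1 without vehicle library 3.

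Among the metalloproteinases and their inhibitors 4 of 12 rose and 1 fell, where 4.02% of all genes rose and 2.45% fell. Mmp14, a membrane-bound protease gene, stood at 285, 253 and 202 in vehicle and 429.8, 421 and 365 on rDLL4 (log2 fold change 0.72 ± 0.07, adjusted p = 4.73e-05). Timp3, a matrix-bound inhibitor gene, stood at 2716, 2479.7 and 2409 and 4045, 4335 and 3950.4 (log2 fold change 0.70 ± 0.07, adjusted p = 5.33e-05). Adamts9, a protease gene that acts on versican, was at 80.9, 75.1 and 72.3 and 37.6, 46.4 and 37.5 (log2 fold change -0.90 ± 0.10, adjusted p = 6.12e-05). None of the 3 genes overlapped between groups. The number that rose was 2 without vehicle library 2, rDLL4 library 2 or the replicate block.

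Of 21 measured TGF-beta and BMP genes, 5 rose and 1 fell, with a median of 0.16, where 4.02% of all genes rose and 2.45% fell. Ltbp1, whose protein stores latent TGF-beta in the matrix, stood at 22.6, 21.4 and 21.5 in vehicle and 61.4, 52.01 and 51.3 on rDLL4 (log2 fold change 1.29 ± 0.08, adjusted p = 6.33e-07). Tgfb2, a ligand gene known for cushion transformation, stood at 39.3, 35.7 and 42.02 and 75.2, 68.7 and 70.02 (log2 fold change 0.86 ± 0.07, adjusted p = 4.99e-06). For both genes the libraries within each group lay close together and the groups did not overlap. Bmp2 was near the counting limit in vehicle (0.222, 0.186 and 0.1396) and at 1.24, 0.7401 and 0.666 on rDLL4 (log2 fold change 0.66 ± 0.15, adjusted p = 0.0138), and its adjusted p was 0.073 without vehicle library 1 and 0.102 without rDLL4 library 1. The response genes Id1, Id2, Id3, Smad6 and Smad7 did not pass (adjusted p between 0.325 and 0.947). The list held 3 or 4 genes that rose without vehicle library 1 or 2 or any rDLL4 library, and 3 without the replicate block. With vehicle library 3 left out, 6 rose and 4 fell. Tgfbr3, a co-receptor gene and the 1 that fell (log2 fold change -0.56 ± 0.16, adjusted p = 0.0489), had an adjusted p of 0.0836 without the block, and of 0.173 without vehicle library 1, 0.252 without vehicle library 2, 0.0927 without rDLL4 library 1, 0.212 without rDLL4 library 2 and 0.145 without rDLL4 library 3.

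Secreted growth factors split, with 6 of 28 higher and 5 lower, where 4.02% of all genes were higher and 2.45% lower. Sema3c, a guidance factor gene, fell from 456, 464 and 295 in vehicle to 238, 271 and 207 on rDLL4 (log2 fold change -0.74 ± 0.10, adjusted p = 0.000522). Edn1, which encodes endothelin-1, stood at 28.8, 30.6 and 65.3 and 14.9, 18.1 and 26.9 (log2 fold change -0.96 ± 0.14, adjusted p = 0.000954), and without the replicate block its adjusted p was 0.0733. Replicate 3 was the highest of its group for Edn1 in both groups. Fgf2 fell as well, from 66.8, 65.8 and 57.2 to 42.3, 48.5 and 42.8 (log2 fold change -0.50 ± 0.12, adjusted p = 0.0233), with an adjusted p of 0.114 without vehicle library 1, 0.132 without vehicle library 2, 0.128 without rDLL4 library 1 and 0.124 without rDLL4 library 3.

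Angptl7, a secreted angiopoietin-like protein gene, fell with wide scatter. Its signal was 12.02, 19.3 and 4.22 in vehicle and 2.24, 7.19 and 2.797 on rDLL4 (log2 fold change -1.26 ± 0.29, adjusted p = 0.0163), and rDLL4 library 2 lay above vehicle library 3. The adjusted p was 0.105 without vehicle library 1, 0.113 without vehicle library 2, 0.109 without rDLL4 library 1 and 0.0642 without rDLL4 library 3, and 0.133 without the replicate block. Without vehicle library 3 it was 4.00e-05. Vegfa, the gene of a growth factor for blood vessels, was at 70.5, 71.4 and 89.7 and 92.6, 98.5 and 107 (log2 fold change 0.37 ± 0.08, adjusted p = 0.01), with an adjusted p of 0.172 without the block, and of 0.0639 without vehicle library 2, 0.0612 without rDLL4 library 1 and 0.0582 without rDLL4 library 2. The number of secreted factor genes that rose was 2 without vehicle library 2, 2 without rDLL4 library 2 and 3 without rDLL4 library 1, and 3 without the replicate block. The number that fell was 2 without vehicle library 1, rDLL4 library 1 or 3, or the block.

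Aqp1 (chromosome 6, 55336432 to 55348555, plus strand) encodes a water channel of endothelial and other cells. Among genes that passed it fell furthest in log2(signal + 1). Its signal was 5.92, 7.14 and 3.04 in vehicle and 0.574, 1.095 and 1.02 on rDLL4, a 5.99-fold lower mean (log2 fold change -1.699 ± 0.17, adjusted p = 5.15e-05). Prph, the gene of the intermediate filament protein peripherin, fell from 69.3, 90.6 and 45.4 to 26.5, 37.8 and 27.8 (log2 fold change -1.09 ± 0.14, adjusted p = 0.000205). Pcdh10, a protocadherin gene, fell from 33.9, 34.2 and 22.3 to 12.8, 19.3 and 12.2 (log2 fold change -0.98 ± 0.12, adjusted p = 0.000139). In each of the 3 genes vehicle library 3 was the lowest of its group and lay above all rDLL4 libraries.

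Cysltr1, a receptor for leukotrienes, and Slc4a10, a bicarbonate transporter, fell, with log2 fold changes of -1.13 ± 0.13 and -1.199 ± 0.17 (adjusted p = 9.00e-05 and 0.000588). Pou3f1, a POU-domain transcription factor gene, and Vxn, a gene of neural differentiation, fell as well (-1.01 ± 0.15 and -1.25 ± 0.17, adjusted p = 0.00107 and 0.000324). These 4 genes kept their calls in all 6 fits without 1 library. Apoe, the gene of a lipid carrier, was at -0.98 ± 0.22 (adjusted p = 0.0156), with an adjusted p of 0.0794 without the replicate block, and of 0.102 without vehicle library 1, 0.0994 without vehicle library 2, 0.1 without rDLL4 library 1 and 0.0506 without rDLL4 library 3. Adam33, a membrane protease gene, was at -0.96 ± 0.20 (adjusted p = 0.0105), with an adjusted p of 0.0555 without vehicle library 1, 0.0715 without vehicle library 2 and 0.0822 without rDLL4 library 1. Scp2-ps2 is a pseudogene whose reads may belong to its parent, and its fall (adjusted p = 0.0446) is uncertain for that reason, with an adjusted p of 0.0671 without the block, and of 0.0938 without vehicle library 1, 0.142 without vehicle library 3, 0.0944 without rDLL4 library 1, 0.145 without rDLL4 library 2 and 0.169 without rDLL4 library 3.

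**Figure D3:**
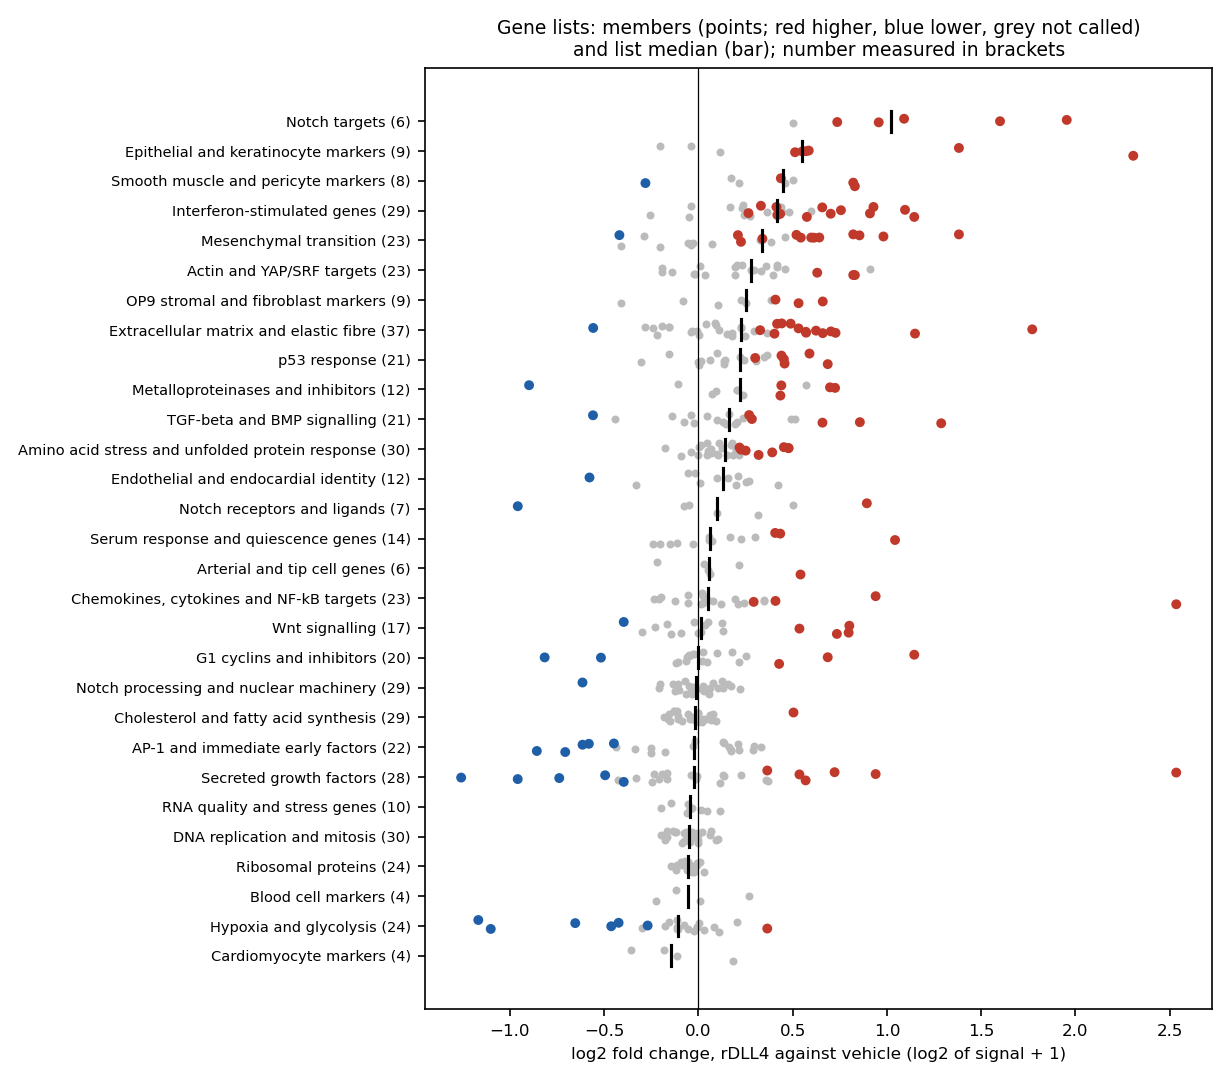
Log2 fold change of rDLL4 against vehicle (horizontal axis, log2 of signal + 1) for every measured member of the 29 gene lists, in order of their medians, shown as bars. Red members were higher and blue members lower at an adjusted p under 0.05: the Notch targets (median 1.02) stand at the top, the epithelial (0.55), smooth muscle (0.45) and interferon (0.42) lists follow, and the ribosomal and replication lists have medians of -0.05.

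Interferon-stimulated genes were higher on rDLL4: of 29 measured, 13 rose and 0 fell, where 4.02% of all genes rose, and the list median was 0.42, against -0.00051 over all genes. At an unadjusted p under 0.05, 24 were higher and 0 lower, where 2191 of all 13407 genes were at that level in either direction. In 21 of the 29 every rDLL4 library lay above every vehicle library (8.45% of all genes). The 13 were Isg15, Usp18, Irf7, Isg20, Oasl2, Ifi44, Xaf1, Irf9, Ifitm3, Tap1, Bst2, Ddx58 and H2-D1. The count was 9 without the replicate block, 7, 11 and 10 without vehicle libraries 1, 2 and 3, and 6, 8 and 7 without rDLL4 libraries 1, 2 and 3. Stat2, a transcription factor gene of the pathway, did not pass (adjusted p = 0.202).

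Isg15, which encodes a ubiquitin-like protein, stood at 7.78, 9.77 and 8.35 in vehicle and 20.7, 19.3 and 20.6 on rDLL4 (log2 fold change 1.15 ± 0.15, adjusted p = 0.000295). Usp18, whose product removes ISG15 from proteins and restrains the receptor, stood at 2.32, 3.42 and 2.09 and 6.68, 7.49 and 5.82 (log2 fold change 1.096 ± 0.13, adjusted p = 0.000145). Isg20, an exonuclease gene, was at 10.9, 10.8 and 7.51 and 20.4, 18.98 and 17.5 (log2 fold change 0.91 ± 0.11, adjusted p = 0.000183). None of the 3 genes overlapped between groups, and the ratio of means was 2.34 for Isg15 and 2.55 for Usp18. On rDLL4 with inhibitor, Isg15 stood at 8.32, 6.899 and 6.43 and Usp18 at 1.32, 1.89 and 0.865. In the chemokine and NF-kB list 4 of 23 rose (Il33, Il6, Cxcl12 and Tnfaip2), where 4.02% of all genes rose, and 0 fell, with a median of 0.05. The count was 1 without rDLL4 library 1 and 2 without vehicle library 2 or rDLL4 library 3.

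In the hypoxia and glycolysis list, 6 of 24 genes fell and 1 rose, with a median of -0.11, where 2.45% of all genes fell and 4.02% rose. The 6 were Car9, Bnip3, Ndrg1, Egln3, Pdk1 and P4ha1, and the gene that rose was Vegfa. Slc2a1, Ankrd37 and P4ha2 of the same list did not pass (adjusted p = 0.8, 0.797 and 0.822). Glycolytic enzyme genes of the list, Aldoa, Tpi1, Gapdh, Eno1, Ldha, Pgk1 and Pkm, did not pass (adjusted p between 0.1 and 0.976). Bnip3, a mitophagy receptor gene, stood at 15.2, 12.3 and 14.4 in vehicle and 6.38, 6.31 and 5.19 on rDLL4 (log2 fold change -1.102 ± 0.11, adjusted p = 5.33e-05). Ndrg1, a stress-response gene, stood at 235, 216 and 175 and 148, 126 and 122 (log2 fold change -0.65 ± 0.07, adjusted p = 6.12e-05). Car9, which encodes a surface carbonic anhydrase, stood at 13.8, 14.6 and 6.003 and 3.68, 4.06 and 5.02 (log2 fold change -1.17 ± 0.23, adjusted p = 0.00553). For Car9, vehicle library 3 was far below the other vehicle libraries and still above the rDLL4 libraries. The number that fell was 4 without vehicle library 1, rDLL4 library 1 or 3, or the replicate block. On rDLL4 with inhibitor, 12 of the 24 were lower than in vehicle and 0 higher, with a median of -0.32. The shares of all genes there were 2.22% lower and 2.16% higher. Against rDLL4 alone, 12 were lower with inhibitor and 4 higher, where 9.05% and 8.21% of all genes were.

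Of 22 AP-1 and immediate early genes 5 fell and 0 rose, where 2.45% of all genes fell and 4.02% rose. The 5 were Spry2, Spry4, Dusp4, Ier3 and Maff, and the first 3 encode feedback inhibitors of growth factor signalling through ERK. Their relatives Spry1, Dusp1, Dusp5 and Dusp6 on the same list did not pass (adjusted p = 0.429, 0.827, 0.422 and 0.129). The log2 fold changes of these relatives were 0.33, 0.13, 0.16 and -0.25. Spry2 stood at 23.5, 34.8 and 42.7 in vehicle and 14.8, 18.2 and 20.2 on rDLL4 (log2 fold change -0.86 ± 0.10, adjusted p = 0.000145). Spry4 stood at 20.4, 18.96 and 23.5 and 10.97, 11.3 and 15.3 (log2 fold change -0.71 ± 0.10, adjusted p = 0.00058). Both were lower in each rDLL4 library than in any vehicle library. The AP-1 subunit genes Fos, Jun and Junb and the early factor gene Egr1 did not pass (adjusted p = 0.673, 0.226, 0.441 and 0.971). The number that fell was 3 without rDLL4 library 1 and 2 without the replicate block, and without vehicle library 3, 1 rose and 4 fell.

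**Figure D4:**
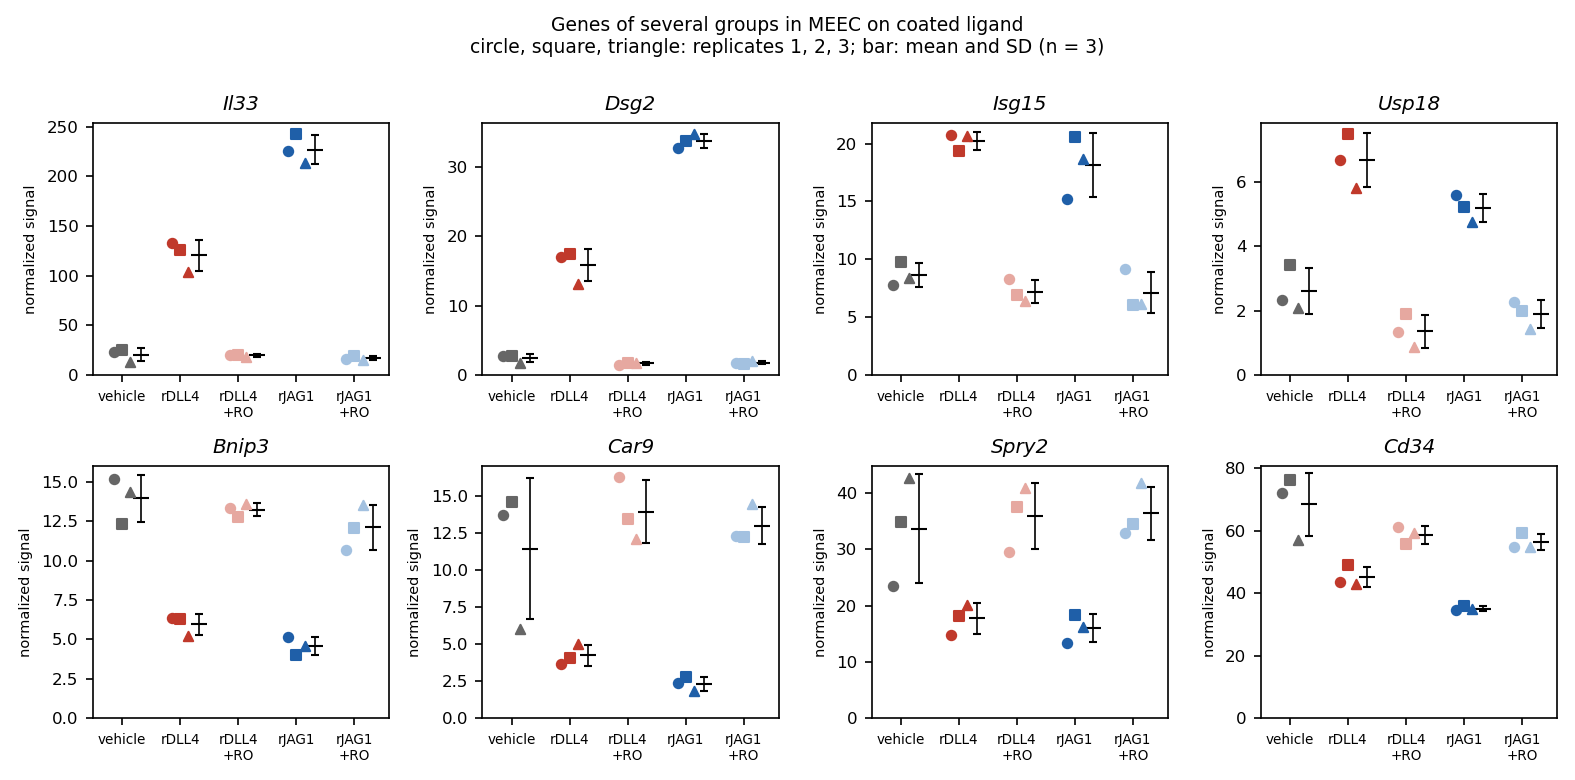
Normalized signal (vertical axes, from 0) of 8 genes from several groups in the 5 groups of the experiment, with 1 point per library and a bar for the mean and SD (n = 3). Il33, Dsg2, Isg15 and Usp18 are higher and Bnip3, Car9, Spry2 and Cd34 lower on rDLL4 than in vehicle, without overlap, and Isg15 lies at 20.7, 19.3 and 20.6 on rDLL4.

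Of 7 genes of cyclin-dependent kinase inhibitors in the G1 list, Cdkn1a, Cdkn2b and Cdkn1c passed, and Cdkn1b, Cdkn2a, Cdkn2c and Cdkn2d did not (adjusted p = 0.919, 0.0867, 0.579 and 0.843). Of 20 G1 genes 3 rose and 2 fell, where 4.02% of all genes rose and 2.45% fell. Cdkn1a, the gene of the cyclin-dependent kinase inhibitor p21, stood at 29.4, 32.02 and 38.2 in vehicle and 51.3, 50.7 and 59.5 on rDLL4 (log2 fold change 0.69 ± 0.06, adjusted p = 1.06e-05). Cdkn2b, another inhibitor gene, stood at 108, 91.5 and 92.1 and 137, 130.2 and 125 (log2 fold change 0.43 ± 0.07, adjusted p = 0.00293). Cdkn1c, an imprinted inhibitor gene, moved the other way, from 8.75, 10.2 and 5.45 to 4.05, 4.88 and 3.33 (log2 fold change -0.82 ± 0.16, adjusted p = 0.00749), with an adjusted p of 0.0577 without vehicle library 2. The 3 inhibitors that passed thus did not share a direction.

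The cyclin gene Ccnd2 stood at 55.8, 45.2 and 115 in vehicle and 148, 138 and 159 on rDLL4 (log2 fold change 1.15 ± 0.17, adjusted p = 0.0008), and vehicle library 3 was the closest to the rDLL4 libraries. Mycn, a growth-promoting transcription factor gene, fell from 62.9, 60.5 and 60.2 to 49.4, 42.1 and 36.7 (log2 fold change -0.52 ± 0.09, adjusted p = 0.00386). Of 30 replication and mitosis genes limma, edgeR and DESeq2 called 0. In limma 0 were higher and 5 lower at an unadjusted p under 0.05, where 2191 of all 13407 genes were at that level. With vehicle library 3 left out, 0 were higher and 2 lower. Without that library, G1 genes numbered 6 higher and 3 lower.

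Of 21 p53 response genes 6 rose (Cdkn1a, Fas, Phlda3, Sesn2, Pmaip1 and Ccng1) and 0 fell, with a median of 0.22. Over all genes 4.02% rose. Fas encodes a death receptor, and Pmaip1 a promoter of apoptosis. Mdm2 and Bax, other well known targets, did not pass (adjusted p = 0.737 and 0.974). Phlda3 stood at 23.1, 22.1 and 31.5 in vehicle and 36.2, 32.7 and 36.5 on rDLL4 (log2 fold change 0.46 ± 0.08, adjusted p = 0.00438). In edgeR and in DESeq2, 6 rose and 1 fell. The number was 4 without vehicle library 1 or rDLL4 library 1.

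Of 30 genes of amino acid stress and the unfolded protein response, 8 rose, where 4.02% of all genes rose, and 0 fell. The list median was 0.14. The 8 included Trib3 and Sesn2, which are stress regulators, Phgdh, Psph and Asns, which make serine and asparagine, and the cystine transporter gene Slc7a11. Phgdh stood at 515, 473 and 476 in vehicle and 672, 566 and 593 on rDLL4 (log2 fold change 0.32 ± 0.06, adjusted p = 0.00378). Atf4, the transcription factor gene of this response, did not pass (adjusted p = 0.678), nor did the chaperone gene Hspa5 (adjusted p = 0.12). The number that rose was 10 without vehicle library 3, 4 without rDLL4 library 1 or 3, and 5 without any of the other libraries or without the replicate block.

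Of 17 Wnt genes 4 rose and 1 fell, with a median of 0.01, where 4.02% of all genes rose and 2.45% fell. Axin2, a feedback gene of the pathway, stood at 2.85, 5.08 and 2.597 in vehicle and 5.83, 10.98 and 4.396 on rDLL4 (log2 fold change 0.80 ± 0.14, adjusted p = 0.00311). Its value was highest in library 2 of both groups, and it rose in each pair, while without the replicate block the adjusted p was 0.348. Nkd1, Znrf3 and Tcf7 of the same list did not pass (adjusted p = 0.801, 0.748 and 0.937). Wnt11, a ligand gene, was at 4.47, 4.31 and 6.28 and 10.01, 10.4 and 7.86 (log2 fold change 0.80 ± 0.19, adjusted p = 0.022), with an adjusted p of 0.112 without vehicle library 1, 0.126 without vehicle library 2, 0.109 without rDLL4 library 1 and 0.117 without rDLL4 library 2. Fewer Wnt genes rose without vehicle library 2 (1), vehicle library 3 (2), rDLL4 library 2 (1) or rDLL4 library 3 (2), and without the replicate block 1 rose and 0 fell. Wnt5a, a ligand gene and the 1 that fell (log2 fold change -0.40 ± 0.11, adjusted p = 0.0461), had an adjusted p of 0.14 without the block, and of 0.0973 without vehicle library 1, 0.118 without vehicle library 3, 0.227 without rDLL4 library 1 and 0.198 without rDLL4 library 3. With vehicle library 3 left out, 3 Wnt genes fell.

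Gas6, which encodes a ligand of TAM receptors and is named for growth arrest, stood at 151, 144 and 100.9 in vehicle and 284, 276 and 248 on rDLL4 (log2 fold change 1.04 ± 0.10, adjusted p = 2.80e-05), with no overlap. It was 1 of 3 of 14 serum response and quiescence genes that rose, with Klf9 and Irs2, where 4.02% of all genes rose. When vehicle library 3 was left out, 3 rose and 4 fell.

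Of 12 measured endothelial and endocardial markers 1 fell and 0 rose, a share called near the 6.47% of all genes. At an unadjusted p under 0.05, 1 was higher and 2 lower, where 2191 of all 13407 genes were at that level. Both edgeR and DESeq2 called 1 lower and 0 higher. Cd34, a surface sialomucin gene of vessels and progenitors, fell from 72.05, 76.2 and 57.1 in vehicle to 43.5, 48.99 and 43.02 on rDLL4 (log2 fold change -0.58 ± 0.08, adjusted p = 0.000534). Kdr, Tek and Gata4 did not pass (adjusted p = 0.626, 0.244 and 0.981). When vehicle library 3 was left out, 3 markers rose and 2 fell. Of 6 arterial and tip cell genes, 1 rose, where 4.02% of all genes rose. That gene, the co-receptor gene Nrp1, stood at 3.46, 3.31 and 4.38 in vehicle and 5.72, 5.77 and 5.99 on rDLL4 (log2 fold change 0.54 ± 0.13, adjusted p = 0.0219). For Nrp1 the adjusted p was 0.115 without vehicle library 1, 0.114 without vehicle library 2, 0.0743 without rDLL4 library 1, 0.0968 without rDLL4 library 2 and 0.0789 without rDLL4 library 3.

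The count of contractile genes changed most with vehicle library 3. Of 23 actin, YAP and SRF target genes 3 rose and 0 fell in the fit of all libraries, where 4.02% of all genes rose. Without vehicle library 3, 15 rose and 0 fell, where 5.82% of all genes rose. The count was 0 without vehicle library 1 or 2 or rDLL4 library 1 or 2, and 1 without rDLL4 library 3, in limma. At an unadjusted p under 0.05, 11 were higher and 1 lower with all libraries, where 2191 of all 13407 genes were at that level. With adjustment, edgeR called 1 higher and DESeq2 3, and limma without the replicate block 0. Acta2, the gene of smooth muscle actin, stood at 793, 632 and 1843 in vehicle and 1748, 1454 and 2009 on rDLL4 (log2 fold change 0.82 ± 0.19, adjusted p = 0.0166). Vehicle library 3 lay within the range of the rDLL4 libraries, and vehicle libraries 1 and 2 far below it. Without vehicle library 3 the difference was 1.17 (adjusted p = 8.05e-06), without the replicate block the adjusted p was 0.249, and it was 0.105 without vehicle library 1, 0.112 without vehicle library 2, 0.07 without rDLL4 library 1 and 0.0937 without rDLL4 library 2. The summed signal of the list ran from 8839 to 16670 in vehicle and from 12760 to 15140 on rDLL4.

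Markers of other cell types were measured beside these results. Of 12 smooth muscle and pericyte markers 8 were measured, 3 rose (Acta2, Cnn1 and Mcam) and 1 fell, where 4.02% of all genes rose and 2.45% fell. Their sum ran from 1205 to 3093 in vehicle and from 2362 to 3133 on rDLL4. Myh11, Lmod1, Rgs5 and Kcnj8 were not listed. Without vehicle library 3, 4 rose and 1 fell, none rose without vehicle library 1 or 2 or the replicate block, and 1 rose without rDLL4 library 1 or 2. Of 15 stromal and fibroblast markers 9 were measured and 3 rose (Col1a1, Col1a2 and Cxcl12), where 4.02% of all genes rose. The sum of the 9 was 3172 to 4102 in vehicle and 4993 to 5481 on rDLL4. Adipoq, Fabp4, Pparg, Lepr, Lum and Dpt were not listed.

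Of 14 cardiomyocyte and 17 blood cell markers 4 each were measured, and limma, edgeR and DESeq2 called 0, with 0 in limma at an unadjusted p under 0.05. Without vehicle library 3, 1 cardiomyocyte marker was higher and 1 lower. Their sums were 23.2 to 42.1 and 4.00 to 4.41 in vehicle and 24.1 to 31.97 and 3.02 to 4.56 on rDLL4. Myh6, Myh7, Actc1 and Ptprc were not listed. Of 24 ribosomal protein genes and 10 RNA quality and stress genes limma called 0, with 0 at an unadjusted p under 0.05 in either list and 0 in edgeR and DESeq2. The part of other cell types in the results above was not tested.

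With RO4929097, which blocks the release of the Notch intracellular domain, the summed signal of the 6 Notch targets on rDLL4 ran from 28.2 to 32.6, below 37.1 to 45.9 in vehicle and 84.3 to 94.0 on rDLL4 alone. All 6 targets were lower with inhibitor than on rDLL4 alone, and Hes1 held most of the sum in each of these groups. Against vehicle, only 1 of the 6, Hes1, was lower with inhibitor and 0 were higher, with a median of -0.03. Over all genes 2.22% were lower and 2.16% higher there. Between rDLL4 with and without inhibitor, 2315 genes passed (17.3%), 1101 higher (8.21%) and 1214 lower (9.05%) with inhibitor, and the comparison shares the rDLL4 libraries with that against vehicle. Against vehicle, rDLL4 with inhibitor differed in 587 genes (4.38%), 289 higher (2.16%) and 298 lower (2.22%). The first count was 1430 without the replicate block and 1478 without inhibitor library 3. The second was 188 without the block, and 273 and 219 without inhibitor libraries 1 and 3. No group had inhibitor without ligand, so the effect of the inhibitor on its own and its effect on the response to rDLL4 cannot be told apart.

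Hey1 stood at 0.785, 0.828 and 0.639 with inhibitor, against 6.46, 6.01 and 5.19 on rDLL4 alone (log2 difference -1.97 ± 0.14, adjusted p = 3.70e-07) and 0.748, 0.816 and 0.754 in vehicle (adjusted p = 0.961). Hey2 stood at 5.49, 5.54 and 8.46 (log2 difference -1.55 ± 0.16, adjusted p = 1.08e-05), and its adjusted p against vehicle was 0.919. For Hes1 the value with inhibitor, 18, 20.7 and 20.5, was below vehicle as well as below rDLL4 (-0.57 ± 0.12 against vehicle, adjusted p = 0.0187). A p that misses the threshold does not show that inhibitor and vehicle levels were equal.

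The level with inhibitor lay beyond that of vehicle for genes of other roles as well, and 5 are given by library. Against vehicle, 6 of 9 epithelial markers were lower with inhibitor and 0 higher. Of 23 mesenchymal transition genes 6 were lower and 1 higher, and of 21 p53 response genes 4 and 0. Of 30 amino acid stress genes 0 were lower and 2 higher. Over all genes 2.22% were lower and 2.16% higher. Krt14 stood at 242, 209.6 and 221 with inhibitor, below every vehicle library (-1.07 ± 0.07 against vehicle, adjusted p = 1.88e-06). Kif26b stood at 16.8, 21.9 and 15.9 (-1.35 ± 0.14, adjusted p = 0.000236) and Ltbp1 at 12.3, 12.6 and 13.4 (-0.73 ± 0.08, adjusted p = 0.000236). Aqp1 moved the opposite way and stood at 17.01, 19.7 and 16.1, above every vehicle library (1.600 ± 0.17, adjusted p = 0.000236). Dlk1 also stood above vehicle, at 15.7, 17.9 and 11.2 (1.52 ± 0.21, adjusted p = 0.00117). In these 5 genes the inhibitor and rDLL4 groups lay on opposite sides of the vehicle mean.

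Not every gene that passed on rDLL4 against vehicle also passed between rDLL4 with and without inhibitor, though Hey1 and Hey2 did, as given above. Eln, Prrx1, Tbx20, Snai2, Dusp4, Mycn and Cxcl12 were among those that did not (adjusted p between 0.0747 and 0.716). So were Tnc and Edn1, which are given by library. Tnc, a matrix glycoprotein gene that rose on rDLL4 (73.8, 48.3 and 41.2 in vehicle, 95.2, 82.9 and 69.7 on rDLL4, log2 fold change 0.62 ± 0.08, adjusted p = 0.000298), stood at 86.3, 76.8 and 62.1 with inhibitor (log2 difference -0.14 ± 0.08, adjusted p = 0.28), and was above vehicle there too (0.49 ± 0.08, adjusted p = 0.004). Without the replicate block the rise of Tnc on rDLL4 had an adjusted p of 0.125. Edn1 stood at 21.5, 20.9 and 26.3 with inhibitor (log2 difference 0.22 ± 0.14, adjusted p = 0.334) and was below vehicle (-0.74 ± 0.14, adjusted p = 0.0106). The Edn1 and Tnc values with inhibitor thus lay on the same side of vehicle as the values on rDLL4.

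The ligands were also compared with each other at the same times. Against the same vehicle libraries 2022 genes passed on rJAG1 (15.1%), 990 higher (7.38%) and 1032 lower (7.7%), and because both comparisons use those libraries their overlap is not given. That count was 1285 without the replicate block, 1150 with only the 2 groups in the fit and 3928 with library weights. Between the ligands themselves 118 genes passed (0.88%), 65 higher on rDLL4 (0.485%) and 53 higher on rJAG1 (0.395%). The count was 31 without the replicate block, 50, 46 and 49 without rDLL4 libraries 1, 2 and 3, and 61 without rJAG1 library 2. The labels give no coating amounts, and the ligands carry different tags (His and Fc), so ligand, amount and tag cannot be told apart.

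Hey1 stood at 15.7, 19.2 and 13.2 on rJAG1, above all rDLL4 libraries (rDLL4 minus rJAG1 -1.29 ± 0.14, adjusted p = 0.0013). Heyl stood at 4.59, 4.25 and 6.59 (-1.51 ± 0.16, adjusted p = 0.0013) and Nrarp at 25.8, 15.8 and 17.2 (-1.19 ± 0.15, adjusted p = 0.0024). Hes1, at 65.4, 80.6 and 48.5, did not pass (-0.34 ± 0.12, adjusted p = 0.29), and 1 rJAG1 library lay within the rDLL4 range. Of the 6 Notch targets 4 were lower on rDLL4 than on rJAG1 and 0 higher, where 0.395% of all genes were lower.

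Of the genes that were lower on rJAG1 than on rDLL4, 3 are given by library. Sema3c stood at 136, 125 and 122 on rJAG1, below every rDLL4 library (0.89 ± 0.10, adjusted p = 0.0013). Mmrn1, a multimerin gene of endothelial cells, stood at 26.7, 29.6 and 22.1 in vehicle, 12.5, 16.5 and 13.8 on rDLL4 and 6.14, 5.53 and 6.84 on rJAG1 (1.09 ± 0.12 between ligands, adjusted p = 0.0013). Gabra3, a GABA receptor subunit gene, did not pass on rDLL4 (19.2, 20.3 and 14.9 in vehicle, 11.7, 17.6 and 12.1 on rDLL4, log2 fold change -0.38 ± 0.12, adjusted p = 0.0838) and stood at 5.598, 6.17 and 6.77 on rJAG1 (1.03 ± 0.12 between ligands, adjusted p = 0.0013). In these genes the group means fell from vehicle through rDLL4 to rJAG1.

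Isg15, Usp18, Kif26b, Col5a1 and Timp3 did not pass between the ligands. Isg15 was at 15.2, 20.6 and 18.7 and Usp18 at 5.598, 5.21 and 4.75 on rJAG1 (rDLL4 minus rJAG1 0.16 ± 0.15 and 0.30 ± 0.13, adjusted p = 0.693 and 0.375). Kif26b was at 199, 181 and 219 (-0.31 ± 0.14, adjusted p = 0.417), Col5a1 at 374, 333 and 325 (-0.12 ± 0.05, adjusted p = 0.361) and Timp3 at 4225, 3739 and 3934 (0.05 ± 0.07, adjusted p = 0.809). A p above the threshold does not show that the ligands act alike.

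Contact with OP9 cells expressing Dll4 offered a second set of cultures with no library in common. After 24 h over OP9-Dll4 rather than OP9-GFP, 808 of 13886 genes passed (5.82%), 391 higher (2.82%) and 417 lower (3%). The tables were normalized separately, so values are compared only as differences within each. The labels do not say whether the OP9 cells were removed before RNA was extracted, and the times in culture differ. Of the 534 genes that rose on coated rDLL4 and were in both tables, 201 (37.6%) rose and 4 fell over OP9-Dll4, where the shares over all 13183 shared genes were 2.90% and 3.16%. Those 201 were 52.6% of the 382 feeder risers in both tables. Of 325 genes that fell on rDLL4, 148 (45.5%) fell and 1 rose, and the 148 were 35.5% of the feeder fallers.

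Nrarp, Il33 and Dsg2 rose in both settings. Nrarp stood at 33.2 ± 10.3 against 8.75 ± 0.958 over OP9-Dll4 and OP9-GFP (mean ± SD, n = 3 each). Its log2 fold change was 1.77 with a standard error of 0.12 (adjusted p = 3.85e-08), and signal and log2 values are given in the same way below. Il33 stood at 117 ± 50.5 against 33.6 ± 16.8 (1.79 ± 0.08, adjusted p = 3.20e-10) and Dsg2 at 11.2 ± 2.58 against 3.32 ± 0.376 (1.48 ± 0.11, adjusted p = 3.04e-07). Edn1 (-0.66 ± 0.07, adjusted p = 1.51e-05) and Sema3c (-0.74 ± 0.07, adjusted p = 2.05e-06) fell in both.

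Several genes of the coated wells did not pass over the feeder. The Notch target Heyl was 1 of them (0.41, adjusted p = 0.259), while Hey2 and Hes1 rose there (0.86 and 0.49, adjusted p = 2.34e-06 and 3.48e-05). Isg15 stood at 16.4 ± 6.95 against 14.2 ± 3.23 (0.14 ± 0.14, adjusted p = 0.691) and Usp18 at 3.96 ± 2.31 against 3.97 ± 1.201 (-0.07 ± 0.15, adjusted p = 0.875). Aqp1 stood at 0.614 ± 0.146 against 0.7497 ± 0.183 (-0.12 ± 0.15, adjusted p = 0.773) and Bnip3 at 9.12 ± 5.57 against 10.98 ± 4.17 (-0.31 ± 0.13, adjusted p = 0.234). Ltbp1, Mmp14 and Timp3 were at 0.30 ± 0.10, 0.15 ± 0.05 and 0.08 ± 0.05 (adjusted p = 0.0793, 0.0928 and 0.474). Whether the response of these genes differs between coated and cell-bound ligand was not tested, since it would need a test across tables. The 5 genes called in opposite directions were Emp2, Cd200, Gpm6b and Col8a2, which rose on rDLL4 and fell over OP9-Dll4, and Capn6, which did the reverse, all named after their values were seen.

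**Figure D5:**
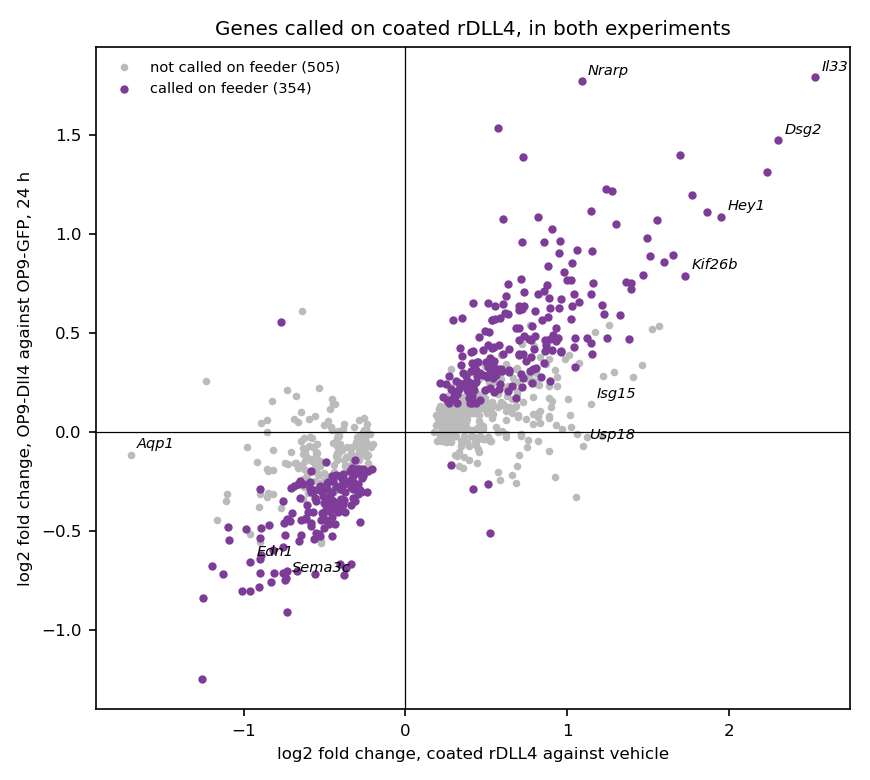
Log2 fold change over OP9-Dll4 against OP9-GFP at 24 h (vertical axis) against that on coated rDLL4 against vehicle (horizontal axis), both of log2(signal + 1), for the 859 genes called on rDLL4 and present in both tables. Purple points also passed over the feeder (354 genes): Il33, Dsg2, Hey1 and Nrarp lie at the upper right, while Isg15, Usp18 and Aqp1 lie near 0 on the vertical axis.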

How the data were processed

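RNA of MEEC cultures was extracted with a PicoPure kit and sequenced from NEBNext Ultra libraries, per the labels' protocols. Tools named for the later steps, per the submitters' processing notes, are FastQC, cutadapt, RSEM and limma, with the build GRCm38. Aligner settings, annotation and strand are not given in the sources used here. Deposited by the authors were counts normalized to library size, treated here as signal: dividing by the smallest step gave whole reads within 0.01 reads for every value, though in vehicle libraries 1 and 2 and rDLL4 library 1 the step rests on few low values, and a floor of 3 reads (95% limit) covers counting error only.

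Signal was tested as log2(signal + 1), which understates changes of low genes, with limma 3.58.1 in R 4.3.3 (trend, replicate block, 15 libraries in 1 fit, Benjamini-Hochberg over 13407 genes). edgeR 4.0.16 and DESeq2 1.42.0 on recovered reads, other pseudocounts, normalizations and left-out libraries were alternatives. The code was tested on simulated data. The labels do not say that replicates were separate cultures, so p-values measure the spread between these samples. Same-numbered rDLL4 and vehicle libraries deviated together (r = 0.152 to 0.408, other numbers -0.436 to 0.18), which passes the threshold of 0.1 for a pairing read from these data. Deviations from a group mean cancel within the group, so the values for same and other numbers are not independent. The 0.18, of vehicle library 1 with rDLL4 library 2, exceeded the 0.152 of the libraries numbered 2. Over all pairs of groups in the fit, same-numbered libraries ran from -0.0504 to 0.42, and some lay below that threshold, among them 2 of the 3 pairs of rDLL4 with and without inhibitor (0.0999 and 0.0778). The 18 libraries of the OP9 experiment were fitted in the same way, with replicate number within each time as block.

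Gene symbols came from GENCODE for 13384 of 13407 identifiers. Members and lists were chosen with earlier results of these data known. Named genes were the 15 largest changes in each direction among called genes with a mean of at least 1, all Notch targets, receptors and ligands, up to 4 called members per direction of each other list, and the 5 largest differences in each direction between ligands. Genes given with only an adjusted p, and members listed behind a count, were named after their values were seen.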

Additional observations from a re-analysis of the deposited data

Results flagged for a closer look

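For 32 named genes the difference between rDLL4 and rJAG1, tested in limma over all genes, had an adjusted p under 0.05. Of these, 22 were lower and 10 higher on rDLL4 than on rJAG1, given here as log2 of rDLL4 minus log2 of rJAG1 (± standard error). Some of the named genes were chosen for this same difference, so these counts depend in part on the choice. Over all genes, 65 were higher and 53 lower on rDLL4. Both ligands were compared over 3 libraries each, and without the replicate block 31 of all 13407 genes passed in place of 118.

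Among Notch targets, the differences were -1.29 ± 0.14 for Hey1, -0.75 ± 0.16 for Hey2, -1.51 ± 0.16 for Heyl and -1.19 ± 0.15 for Nrarp. Among the genes that rose most on rDLL4, they were -0.92 ± 0.12 for Il33, -1.05 ± 0.13 for Dsg2, -0.83 ± 0.14 for Hecw1, -1.13 ± 0.21 for H19, -0.77 ± 0.16 for Ntn4, -0.61 ± 0.13 for Itga8, -0.82 ± 0.15 for Aldh1a3 and -0.75 ± 0.12 for Prag1. The epithelial genes Cdh1, Krt14 and Krt8 were at -0.61 ± 0.13, -0.43 ± 0.07 and -0.39 ± 0.07. The growth factor pathway genes Ltbp1, Tgfb2 and Igf2 were at -0.53 ± 0.08, -0.39 ± 0.07 and -0.87 ± 0.17, and the p53 response genes Cdkn1a and Phlda3 at -0.41 ± 0.06 and -0.44 ± 0.08.

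Krt79, a keratin gene with 0, 0 and 1 reads in the vehicle libraries and 23, 8 and 5 on rDLL4, differed by -1.21 ± 0.16, a value that depends on the pseudocount. Fosb, an AP-1 subunit gene, stood at 0.796, 0.799 and 1.82 on rDLL4 and 3.9, 3.998 and 3.28 on rJAG1 (-1.18 ± 0.25). It did not pass between rDLL4 and vehicle (adjusted p = 0.611).

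The 10 genes that were higher on rDLL4 than on rJAG1 were Angptl7 (1.403 ± 0.29), Cysltr1 (0.72 ± 0.13), Prph (0.70 ± 0.14), Pcdh10 (0.92 ± 0.12), Sema3c (0.89 ± 0.10), Fbln5 (0.36 ± 0.05), Adamts9 (0.65 ± 0.10), Mmrn1 (1.09 ± 0.12), Gabra3 (1.03 ± 0.12) and Igfbp5 (0.94 ± 0.18). Igfbp5, which encodes a carrier of insulin-like growth factors, stood at 3.82, 4.94 and 2.597 in vehicle, 1.46, 2.52 and 1.998 on rDLL4 and 0.502, 0.544 and 0.582 on rJAG1.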

How the results depend on the processing

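Of the 868 genes called between rDLL4 and vehicle, 469 kept their call without the replicate block, 846 in edgeR, 833 in DESeq2, 868 with library weights and 768 without vehicle library 3, and 0 changed direction among these. The pairing check is given with the processing. Counts of called genes moved as follows. For rDLL4 against vehicle there were 2853 with library weights, 469 without the replicate block, 374 with only the 2 groups compared and the block, and 218 to 1431 with a library or a replicate number left out. For rDLL4 against rJAG1 there were 221 in DESeq2, 344 with weights, 31 without the replicate block, 42 with only the 2 groups, and 0 to 112 with libraries left out. The count of 0 arose in limma without replicate number 1 or 2, where 1243 and 800 genes passed at an unadjusted p under 0.05, and all libraries gave 118 in limma and 221 in DESeq2. For rDLL4 with inhibitor against rDLL4 there were 4178 with weights, 1430 without the replicate block, 3611 with only the 2 groups, and 884 to 1882 with libraries left out. For inhibitor against vehicle there were 1544 with weights, 188 without the replicate block, 110 with only the 2 groups, and 93 to 502 with libraries left out. The cause was not tested, though every left-out fit has fewer samples. Of 118 named genes 106 were called, and 74 kept their call in all 6 fits without 1 library of rDLL4 or vehicle. Without the replicate block 26 of the 106 lost the call, with only the 2 groups 32, in edgeR 3, in DESeq2 1, and with library weights 0. A sign changed for Notch2 without replicate number 1 (range over numbers left out -0.10 to 0.0067) and for Dlk2 without number 2 (-0.00061 to 0.27), neither of them called. Depth limits genes such as Heyl, whose vehicle libraries held 2, 3 and 1 reads.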
